A study of Mus musculus with 12 samples.

Results

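Naive CD4 T cells of PP2Ac transgenic mice were compared with those of WT mice after 6 h of stimulation, with 2 arrays per genotype out of the 12 arrays of the study. The arrays were chosen by their titles, which name the genotype and the time, and every probe set with a gene symbol was used (23410). Both genotypes were on the strain C57BL/6, and both were cultured in RPMI with 10% FCS. Stimulation was by 0.25 ug/mL of anti-CD3 with 0.5 ug/mL of anti-CD28, both soluble, over plate-bound goat anti-hamster antibody, and total RNA was hybridised after labelling with biotin. The comparison asks which transcripts differ between activated T cells with and without the transgene. PP2Ac is the product of the transgene; its promoter, the number of founder lines and the age of the mice are not stated in the labels. The source label of the WT samples also carries the word transgenic, and the titles were followed. In each genotype the title of 1 array carries the mark Rep, and the other array is called unmarked here. Whether the 2 arrays of a group came from separate mice or cultures is not stated, so the p-values measure only the spread between these samples, which may be technical.

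Protein phosphatase 2A (PP2A) removes phosphate from serine and threonine. It is built from a scaffold subunit, a catalytic subunit and an exchangeable regulatory B subunit that selects the substrate. PP2A acts on kinases and transcription factors downstream of the T cell receptor (TCR), among them the ERK cascade and CREB, and its catalytic subunit is known to be abundant in T cells of patients with systemic lupus erythematosus. Helper T cells that make interleukin 17 (Th17 cells) use the nuclear receptors of the ROR family. Type I interferons act through transcription factors that bind interferon-stimulated response elements.

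The promoters of the Th17 cytokine genes Il17a and Il17f and of the interferon-stimulated genes Ifit1 and Rsad2 are shown, since these genes represent the pair of patterns described below: a difference present in both sets of arrays, and a difference carried by 1 array. Each sequence is the 250 bases before the gene's start from RefSeq (GRCm38.p6), read in the direction of the gene. Il17a lies at chr1:20730655-20730904 on the plus strand and Il17f at chr1:20784271-20784520 on the minus strand. The capitals mark the ROR core AGGTCA, on either strand, and the TATA box TATAAA.
Il17a promoter: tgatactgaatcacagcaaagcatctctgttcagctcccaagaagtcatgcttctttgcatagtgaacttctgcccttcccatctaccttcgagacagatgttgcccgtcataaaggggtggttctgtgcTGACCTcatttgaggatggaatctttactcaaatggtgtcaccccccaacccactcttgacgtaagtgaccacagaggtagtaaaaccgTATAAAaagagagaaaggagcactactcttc
Il17f promoter: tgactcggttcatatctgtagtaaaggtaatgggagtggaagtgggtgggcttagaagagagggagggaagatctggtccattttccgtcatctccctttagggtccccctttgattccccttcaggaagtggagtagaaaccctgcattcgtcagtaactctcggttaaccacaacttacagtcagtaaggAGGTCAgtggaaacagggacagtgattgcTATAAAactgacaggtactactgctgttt
Ifit1 lies at chr19:34640639-34640888 on the plus strand and Rsad2 at chr12:26456453-26456702 on the minus strand. In these the capitals mark the interferon response element (GAAA, any 2 bases, then GAAA), on either strand.
Ifit1 promoter: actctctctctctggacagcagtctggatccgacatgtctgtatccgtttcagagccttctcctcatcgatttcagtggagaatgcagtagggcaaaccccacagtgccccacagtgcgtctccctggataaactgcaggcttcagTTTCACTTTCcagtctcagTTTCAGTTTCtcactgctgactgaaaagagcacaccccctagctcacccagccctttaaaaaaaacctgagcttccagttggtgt
Rsad2 promoter: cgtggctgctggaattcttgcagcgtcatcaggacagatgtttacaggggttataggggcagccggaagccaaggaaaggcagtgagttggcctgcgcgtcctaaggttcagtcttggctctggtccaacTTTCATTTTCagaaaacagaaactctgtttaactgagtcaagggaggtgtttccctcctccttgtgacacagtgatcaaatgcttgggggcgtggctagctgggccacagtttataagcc
The ROR core began 120 bases before the start of Il17a and 58 before that of Il17f, and the TATA box began 31 and 29 bases before the start. Ifit1 held 2 response elements, 104 and 85 bases before the start, and Rsad2 held 1 at 120. The first element of Ifit1 overlapped the NFAT core GGAAA. Among 32851 RefSeq windows of the same length, 14% held the ROR core, 12.4% the TATA box, 2.98% the response element and 55.6% the NFAT core. Windows were found for 11 of the 13 Th17 genes, of which 5 held the ROR core and 3 the TATA box, and for 16 of the 24 interferon-stimulated genes, of which 8 held the response element. The other motifs searched on both strands were AP-1 (TGANTCA, 6.75% of windows), CRE (TGACGTCA, 1.55%) and STAT (TTCNNNGAA, 7.02%). A match describes these letters alone.

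The WT array marked Rep stood apart from the other 3 arrays in several lists. Of 12 neutrophil markers all 12 read lowest on it, as did 10 of 11 monocyte and macrophage markers and 23 of 24 type I interferon-stimulated genes, whereas 23.7% of all 19938 genes did. Values of replicate arrays correlated across probe sets with r = 0.996 in the transgenic and 0.991 in the WT group at 6 h, and their root mean square differences were 0.23 and 0.34 on the log2 scale, the latter the largest of the 6 groups of the study. The genes that define CD4 T cells were measured on every array, with Cd4 between 12.98 and 13.40 and Cd3g between 12.89 and 13.20. Markers of other cells were measured too: 0 of 12 neutrophil, 0 of 11 monocyte and macrophage and 0 of 10 B cell and plasma cell markers read below the lower quartile of all probe sets (6.00 to 6.02 on the 12 arrays) on all 4 arrays. In bulk RNA, fewer cells of a type and less RNA per cell cannot be told apart.

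Across the 23410 probe sets, 2 were higher in transgenic cells (0.00854%) and 0 were lower (0%) at a limma adjusted p under 0.05, and both belonged to Nova1. An unadjusted p under 0.05 was reached by 284 probe sets in the higher direction (1.21%) and by 326 in the lower direction (1.39%), 610 in all (2.61%). The total share lies below the threshold of 0.05 itself, so the counts show no surplus of small p-values. This fit leaves out the mark Rep, although arrays of the same mark deviated together from their group means. The correlation was r = 0.50 between transgenic and WT cells at 6 h. With the mark Rep as a replicate block 3 were higher (0.0128%) and 1 was lower (0.00427%), 4 in all (0.0171%), which added Il17f and Mid1 to Nova1. Absolute differences above 1 on the log2 scale were found for 47 probe sets (0.201%), and above 0.5 for 272 (1.16%). The median over 19938 genes was -0.01, with 45.1% of genes above 0. In the values that follow, arrays are given as unmarked and then Rep, levels are log2 values, and differences are transgenic minus WT on the log2 scale ± SE.

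Ppp2ca, the gene of the PP2A catalytic subunit alpha and of the transgene product, read 13.80 and 13.69 on the transgenic arrays and 13.42 and 13.30 on the WT arrays. Both transgenic arrays lay above both WT arrays, and the difference was as large in each set (0.38 and 0.39). The pooled difference of 0.38 ± 0.08, a ratio of 1.31, did not pass (limma adjusted p = 1, n = 2 arrays per group). The positions of its probes were not used here, so the transcript of the transgene and that of the endogenous gene cannot be told apart. The second catalytic gene Ppp2cb read 12.36 and 12.48 against 12.35 and 12.39, and the scaffold gene Ppp2r1a read 13.74 and 13.61 against 13.67 and 13.61. These groups overlapped, with differences of 0.05 ± 0.09 and 0.03 ± 0.08.

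Mid1 encodes a ubiquitin ligase known to target the catalytic subunit of PP2A. It read 10.22 and 10.30 in transgenic cells and 11.16 and 11.26 in WT cells, so that both transgenic arrays were lower and the sets gave nearly equal differences of -0.94 and -0.96. The difference of -0.95 ± 0.11 did not pass in the fit without the mark (limma adjusted p = 0.10) and passed with the replicate block (adjusted p = 0.033). Set, whose product is an inhibitor of PP2A, read 8.82 and 8.64 against 9.24 and 8.83. Its groups did not overlap either, but the difference of -0.30 ± 0.17 had an adjusted p of 1.

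Of the 15 measured catalytic and scaffold subunits and their maturation factors, 0 passed and 1, Mid1, passed with the block. The list's median was 0.00. The other members apart from Ppp2ca, Mid1 and Set lay between -0.11 (Ppp2r1b, the second scaffold gene) and 0.10 (Cip2a, an inhibitor). Igbp1, the alpha4 protein that binds the free catalytic subunit and MID1, differed by 0.07 ± 0.09. The enzymes that methylate and demethylate the catalytic subunit, Lcmt1 and Ppme1, differed by 0.02 ± 0.09 and 0.00 ± 0.10. Of the 14 measured B subunit genes, 0 passed, 12 had overlapping groups, and the differences ran from -0.14 (Ppp2r3a) to 0.11 (Ppp2r5a). Separate groups were found for 1 with transgenic cells higher and 1 with transgenic cells lower, against 11.2% and 14% of all genes. The genes of the catalytic alpha subunit and of MID1 had the largest absolute differences in these PP2A lists, in opposite directions.

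Nova1, an RNA-binding splicing regulator known mainly from neurons, had the largest differences. Probe set 10400155 read 9.31 and 9.51 in transgenic cells and 5.63 and 5.30 in WT cells. Probe set 10400157 read 10.28 and 10.03 against 6.06 and 5.51. Every transgenic array was thus above every WT array by more than 3 log2 units in both probe sets. The WT means (5.47 and 5.79) lay below the lower quartile of every array, and since the table holds no detection calls the differences are given as lower bounds: at least 3.94 ± 0.17 and at least 4.37 ± 0.24 (limma adjusted p = 4.8e-05 and 0.00024). On a linear scale these are at least 15.4-fold and at least 20.7-fold higher. Leaving out 1 of the 4 arrays at a time gave 3.78 to 4.11 and 4.10 to 4.64.

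**Figure D1:**
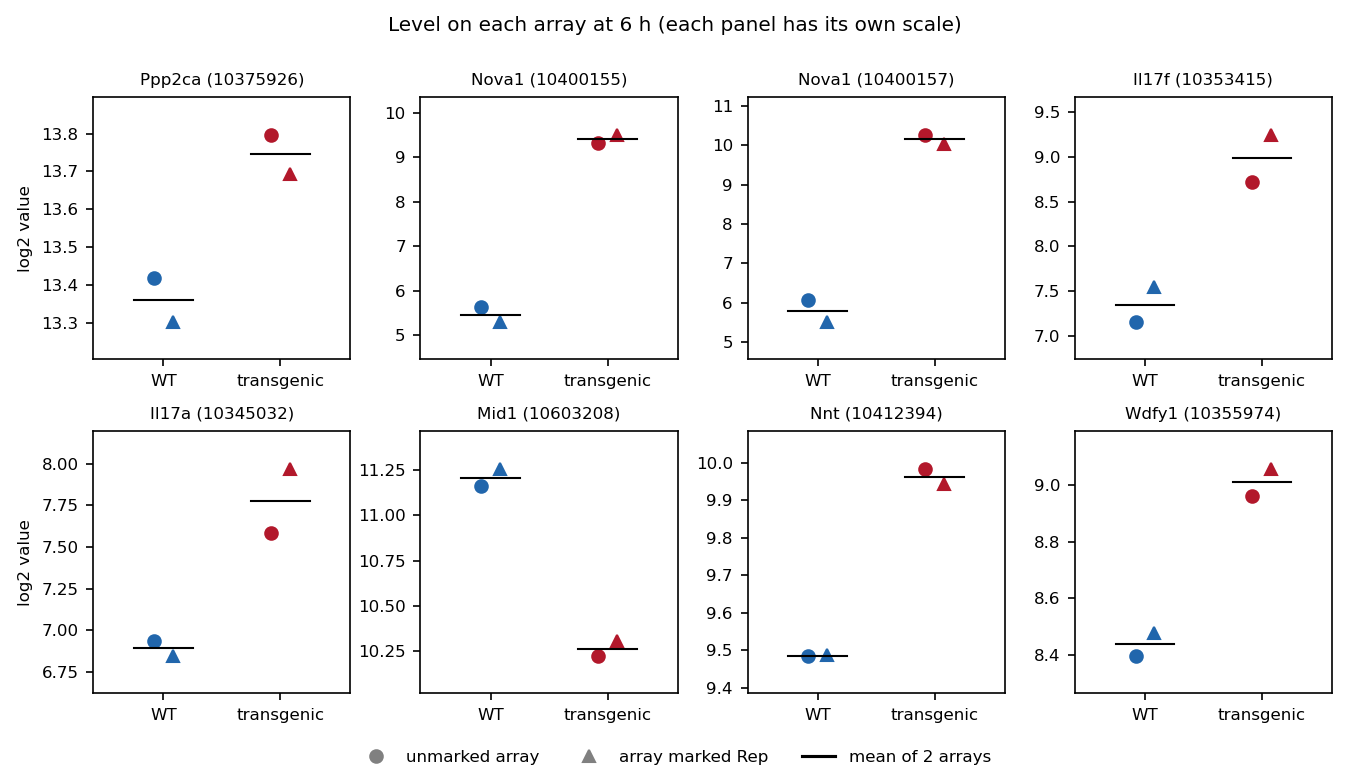
Log2 level of 8 probe sets on each of the 4 arrays at 6 h, for WT (blue) and transgenic (red) cells; circles are unmarked arrays, triangles arrays marked Rep and lines the mean of 2 arrays, and each panel has its own scale. The groups do not overlap in any panel, and Mid1 is the panel in which WT lies higher; Nova1 10400155 reads 5.63 and 5.30 in WT and 9.31 and 9.51 in transgenic cells.

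Genes of the Th17 lineage were led by its cytokines. Il17f read 8.72 and 9.25 in transgenic cells and 7.16 and 7.54 in WT cells. Il17a read 7.58 and 7.97 against 6.94 and 6.85. The groups of both genes were separate, and the difference appeared in both sets: 1.56 and 1.70 for Il17f, and 0.65 and 1.12 for Il17a. Il17f differed by 1.63 ± 0.22, a ratio of 3.10, which did not pass in the fit without the mark (limma adjusted p = 0.26) and passed with the replicate block (adjusted p = 0.0049). Il17a differed by 0.89 ± 0.13, a ratio of 1.85, and passed in neither (adjusted p = 0.26 and 0.17).

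The receptors and chemokine of this lineage had smaller differences that did not pass. Il23r, a subunit of the interleukin 23 receptor, read 6.58 and 7.05 against 6.35 and 6.40. Ccr6, the chemokine receptor of Th17 cells, read 7.84 and 8.11 against 7.40 and 7.76, and its ligand Ccl20 read 6.86 and 7.18 against 6.72 and 6.58. In all of these both transgenic arrays lay above both WT arrays, with differences of 0.44 ± 0.16, 0.40 ± 0.23 and 0.37 ± 0.16 (adjusted p = 1 for each). Il21, a cytokine of Th17 and follicular helper cells, read 9.22 and 7.09 against 8.40 and 6.56. Both arrays marked Rep were low, and within each set the transgenic array was the higher (0.82 and 0.53), a difference of 0.67 ± 0.85. Without the unmarked transgenic array Il21 differed by -0.39, and without the WT array marked Rep by -0.24. Without the transgenic array marked Rep it differed by 1.74, and without the unmarked WT array by 1.59, so its pooled sign rests on single arrays.

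The lineage's transcription factors stood closer together. Rora, a ROR family receptor, differed by 0.20 ± 0.26, Maf by 0.29 ± 0.22, the aryl hydrocarbon receptor Ahr by 0.17 ± 0.13 and Stat3 by 0.09 ± 0.08. Irf4 and Batf, which act together at Th17 genes, differed by -0.02 ± 0.18 and -0.12 ± 0.15. Of the 13 measured Th17 genes, 0 passed, 1 (Il17f) passed with the block, 10 had a positive difference and 7 had both transgenic arrays above both WT arrays, against 11.2% of all genes. The list's median was 0.29, at 0.20 (unmarked) and 0.35 (Rep) within the sets, against -0.01 over all genes. Without the WT array marked Rep it was 0.18, and without the unmarked transgenic array 0.14. The part of cells other than CD4 T cells in the Th17 values was not tested.

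Th1 genes gave values of the same sign without a call. Ifng, which encodes interferon gamma, read 10.93 and 11.37 in transgenic cells and 10.25 and 10.55 in WT cells, a difference of 0.75 ± 0.42. Il18rap, a subunit of the interleukin 18 receptor, read 8.99 and 9.16 against 8.54 and 8.57 (0.52 ± 0.23). Both genes had separate groups, as did the chemokine gene Ccl5 (0.30 ± 0.15), Eomes (0.28 ± 0.25) and Hlx (0.13 ± 0.16). Tbx21, the gene of the Th1 factor T-bet, differed by 0.23 ± 0.27 and Il12rb2, a subunit of the interleukin 12 receptor, by 0.51 ± 0.55, both with overlapping groups. Of the 13 measured Th1 genes 0 passed, 12 were positive, against 45.1% of all genes, and 5 had separate groups with transgenic cells higher, against 11.2%. The median was 0.28, with 0.26 and 0.25 in the sets.

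NK cells and CD8 T cells also express many of the Th1 genes, and markers of both also had positive pooled differences. Over 9 NK cell markers, the mean level was 8.74 and 8.97 in transgenic cells and 8.12 and 8.65 in WT cells, with 8 of the 9 lowest on the unmarked WT array. The CD8 T cell genes Cd8a and Cd8b1 differed by 0.47 ± 0.55 and 0.14 ± 0.26, with mean levels of 10.23 and 9.21 against 9.78 and 9.05. Without the unmarked transgenic array they differed by -0.26 and -0.16, and without the WT array marked Rep by -0.10 and -0.04, so their sign rests on single arrays. The part of these cells in the Th1 values was not tested.

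Th2 genes had a median of 0.03 over 9 measured members, 0 of which passed. Il4, the lineage cytokine, read 7.73 and 7.81 against 7.74 and 7.65, and Gata3, its transcription factor, differed by 0.03 ± 0.25. Il10 had separate groups at 7.83 and 7.39 against 7.37 and 7.03 (0.41 ± 0.34), and the chemokine receptor gene Ccr4 differed by -0.33 ± 0.22. Regulatory and follicular T cell genes centred on 0.01, with Foxp3 at 0.15 ± 0.36 and Bcl6 at -0.13 ± 0.28. Among 17 other cytokines and TNF family ligands 0 passed and the median was 0.09. Il3, a growth factor for myeloid cells, had both transgenic arrays above both WT arrays (0.54 ± 0.34), Lif differed by 0.30 ± 0.27 and Csf2 by 0.06 ± 0.35. Csf1, the growth factor of macrophages, was low on the WT array marked Rep alone: 9.40 and 9.24 against 9.39 and 7.98.

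Genes of the early TCR response were compared by their levels at 6 h. Fos and Egr1, immediate early transcription factors, differed by -0.08 ± 0.21 and -0.04 ± 0.17. The activation marker Cd69 read 13.41 and 13.91 against 13.50 and 13.83, and Il2ra, the interleukin 2 receptor alpha chain, read 13.53 and 13.61 against 13.58 and 13.47. Il2 read 10.11 and 10.31 against 10.26 and 9.96, a difference of 0.10 ± 0.55, and Tnf differed by 0.05 ± 0.22. With an SE of that size, a moderate difference in Il2 was not detectable. The 22 early response genes had a median of -0.02, with 21 overlapping. The exception was Dusp2, a phosphatase of ERK, with 11.22 and 11.21 in transgenic cells against 11.43 and 11.47 in WT cells (-0.24 ± 0.08, adjusted p = 1). Over all genes, 11.2% had separate groups with transgenic cells higher and 14% with transgenic cells lower, so the share in this list was no higher.

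TCR complex genes, kinases and adaptors had a median of -0.02 over 22 genes, with 0 past the threshold. Cd3d, a chain of the CD3 complex, read 11.28 and 11.07 against 11.36 and 11.46 (-0.24 ± 0.10), and the kinase gene Zap70 read 12.62 and 12.58 against 12.72 and 12.70 (-0.11 ± 0.09). These were the 2 members with separate groups, both lower in transgenic cells, while 14% of all genes had separate groups in that direction. Of 10 CD4 T cell markers, 0 had a positive pooled difference, and the median was -0.05, made up of 0.02 (unmarked) and -0.15 (Rep). Of these markers 8 read lowest on the transgenic array marked Rep, as did 11 of the 22 TCR genes, against 5535 of 19938 genes, and without that array the median was 0.01. ERK cascade genes and their feedback inhibitors had a median of -0.01 over 12 genes, among them Map2k1 (0.12 ± 0.11), Dusp4 (0.15 ± 0.19) and Spry1 (-0.09 ± 0.17). NF-kB genes had a median of -0.04 over 15 genes, with Nfkb2 at -0.08 ± 0.09 and Tnfaip3 at 0.07 ± 0.14.

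Targets of the interleukin 2 receptor and STAT5 had a median of 0.12 over 15 genes, of which 0 passed, 11 were positive and 6 had separate groups with transgenic cells higher, against 11.2% of all genes, and 1 (Lta) had them with transgenic cells lower, against 14%. Without the transgenic array marked Rep the median was 0.05. Socs1 and Socs2, feedback inhibitors of cytokine receptors, read 11.24 and 11.24 against 10.91 and 10.93, and 10.24 and 10.27 against 9.71 and 9.75. The spread within each group was small beside the separation, yet neither passed, at 0.32 ± 0.17 and 0.53 ± 0.29. The pooled SE also takes in the spread at the other times, but neither passed in a fit of the 6 h arrays alone either. Gzmb and Prf1, which encode granzyme B and perforin and are expressed by NK cells as well, differed by 0.73 ± 0.51 and 0.51 ± 0.29. The receptor chain genes Il2rb and Il2ra differed by 0.18 ± 0.08 and 0.05 ± 0.33.

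Costimulatory and inhibitory receptors had a median of 0.01 over 16 genes. Havcr2, the gene of the inhibitory receptor TIM-3, read 8.32 and 8.27 against 8.12 and 7.73 (0.37 ± 0.14, adjusted p = 1), and Cd28, through which the cells were stimulated, read 13.28 and 13.34 against 13.28 and 13.36. The chemokine receptor gene Cxcr6 read 9.39 and 9.47 against 9.01 and 9.05, a separation in both sets (0.38 and 0.42) with a pooled value of 0.40 ± 0.12 that did not pass (adjusted p = 1). Among 18 genes of quiescent and naive T cells all 18 overlapped. Over all genes, 11.2% had separate groups with transgenic cells higher and 14% with transgenic cells lower. Of the 18 genes, 14 read highest on the WT array marked Rep, against 6203 of 19938 genes. Il7r, the interleukin 7 receptor gene, read 10.82 and 11.11 in transgenic cells and 10.72 and 11.89 in WT cells.

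Type I interferon-stimulated genes were split by the mark. Rsad2, which encodes the antiviral protein viperin, read 12.65 and 11.97 in transgenic cells and 12.84 and 9.20 in WT cells. Ifit1, an antiviral RNA-binding protein gene, read 12.09 and 12.10 against 12.31 and 10.39. The WT array marked Rep was the lowest in each gene. The other arrays were close for Ifit1, while for Rsad2 the transgenic array marked Rep also lay below the unmarked arrays. The unmarked arrays gave differences of -0.19 and -0.22 and the arrays marked Rep 2.77 and 1.71, and the pooled values of 1.29 ± 1.07 and 0.75 ± 0.58 did not pass.

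All 24 measured interferon-stimulated genes had a positive pooled difference, with a median of 0.55, but 9 of 24 were positive on the unmarked arrays (median -0.11) and 24 of 24 on the arrays marked Rep (median 1.25). Without the WT array marked Rep the median was -0.22. A smaller group stood higher in both sets: Xaf1 read 10.39 and 10.42 against 10.23 and 9.47, Zbp1 12.05 and 11.91 against 11.77 and 11.42, and Stat2 11.66 and 11.58 against 11.45 and 11.02. In the unmarked set alone these differed by 0.16, 0.28 and 0.21. In all, 7 of the 24 had separate groups with transgenic cells higher, against 11.2% of all genes, and 0 passed (adjusted p = 1 for Xaf1, Zbp1 and Stat2).

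Interferon gamma targets were positive in 10 of 10 genes when pooled, against 45.1% of all genes, and in 7 of 10 on the unmarked arrays. Their median was 0.22 (0.10 unmarked, 0.28 Rep), and 0.04 without the transgenic array marked Rep. None passed (0 of 10). The chemokine gene Cxcl9 read 11.83 and 11.81 in transgenic cells and 11.06 and 10.66 in WT cells, a separation in both sets (0.96 ± 0.49). Cxcl10, which also responds to type I interferon, followed the pattern of Rsad2, with 13.51 and 12.85 against 13.82 and 11.43. Irf8 and Ciita, transcription factor genes, differed by 0.24 ± 0.14 and 0.25 ± 0.17, and Irf1 by 0.06 ± 0.22.

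At 6 h myeloid genes, like interferon-stimulated genes, were low on the WT array marked Rep. The mean level of 12 neutrophil markers was 11.46 and 10.84 in transgenic cells and 11.76 and 8.74 in WT cells, and that of 11 monocyte and macrophage markers was 10.10 and 10.00 against 10.26 and 8.71. S100a8, a neutrophil calcium-binding protein gene, read 12.12 and 11.62 against 12.42 and 8.90, and Lyz2, a lysozyme gene of myeloid cells, 13.08 and 12.93 against 13.21 and 10.70. The list medians were -0.26 and 2.11 in the sets for neutrophil markers, and -0.12 and 1.44 for monocyte and macrophage markers. Without the WT array marked Rep they were -0.60 and -0.20. The part of myeloid cells in the interferon values was not tested. Il17f and Il17a do not share this pattern: without that array they differed by 1.82 and 0.84, with adjusted p of 0.93 and 1.

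**Figure D2:**
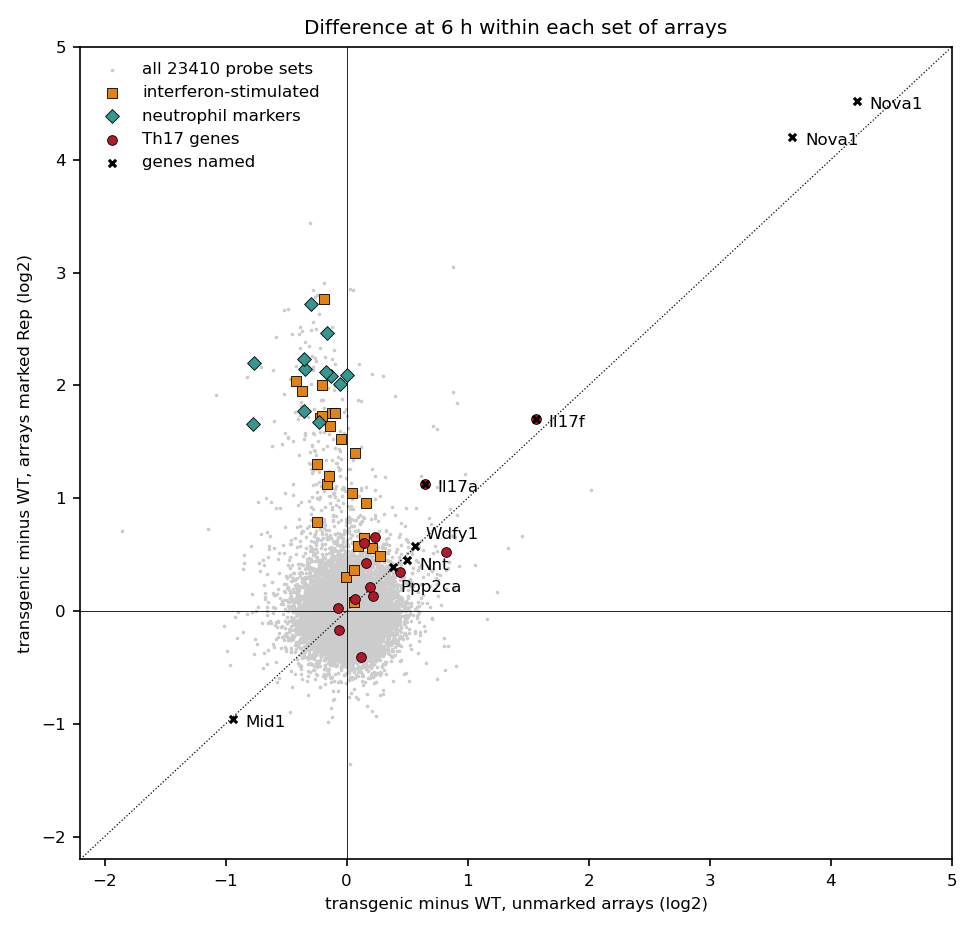
Difference between transgenic and WT cells (log2) in the unmarked arrays (x axis) and in the arrays marked Rep (y axis) for all 23410 probe sets; the dotted line marks equal differences. Nova1, Il17f, Ppp2ca, Nnt, Wdfy1 and Mid1 lie near the line, while neutrophil markers and interferon-stimulated genes lie along the y axis, with list medians of -0.26 and -0.11 in the unmarked and 2.11 and 1.25 in the Rep arrays.

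Among dendritic cell markers the smallest p-values belonged to Cd86 and Itgax. Cd86, the costimulatory ligand of antigen-presenting cells, read 9.70 and 9.87 in transgenic cells and 9.16 and 9.37 in WT cells, and Itgax, the CD11c integrin gene, read 8.44 and 8.34 against 8.02 and 7.79. The differences of 0.52 ± 0.12 and 0.48 ± 0.13 did not pass (limma adjusted p = 1 for both, and 0.20 and 0.93 with the replicate block). Fscn1 and Ccl22, expressed by mature dendritic cells, differed by 1.06 ± 0.64 and 0.59 ± 0.48. Of 12 measured markers 0 passed, and 7 had separate groups with transgenic cells higher, against 11.2% of all genes. The median was 0.23, with 0.23 and 0.31 in the sets, and 0.15 without the unmarked WT array. On the unmarked arrays 9 of 12 were positive, and on the arrays marked Rep 11 of 12. The mean level was 8.90 and 9.13 in transgenic cells against 8.57 and 8.84 in WT cells, so the lowest transgenic level lay just above the highest WT level.

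NK cell markers were lower on the unmarked WT array than on the other 3. Ncr1, the gene of the NKp46 receptor, read 8.64 and 8.84 against 7.31 and 8.28 (0.94 ± 0.51), and Gzma, the granzyme A gene, read 9.92 and 9.85 against 8.68 and 9.69 (0.70 ± 0.46). The list's median was 0.53, at 0.70 (unmarked) and 0.29 (Rep) within the sets, and it was 0.10 without the unmarked WT array. Erythroid markers were positive in 5 of 5 genes, with a median of 0.37. All 5 read lowest on the WT array marked Rep, and without it the median was 0.18. Slc4a1, the anion exchanger of red cells, read 9.72 and 9.47 against 8.74 and 8.25 (1.09 ± 0.39, adjusted p = 1). B cell and plasma cell markers had a median of 0.06 (0.20 unmarked, 0.01 Rep), which was 0.37 without the WT array marked Rep and -0.20 without the unmarked WT array, with Igha at 0.47 ± 0.31, and platelet markers had a median of -0.10. The part of these cells in the values of other genes was not tested.

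**Figure D3:**
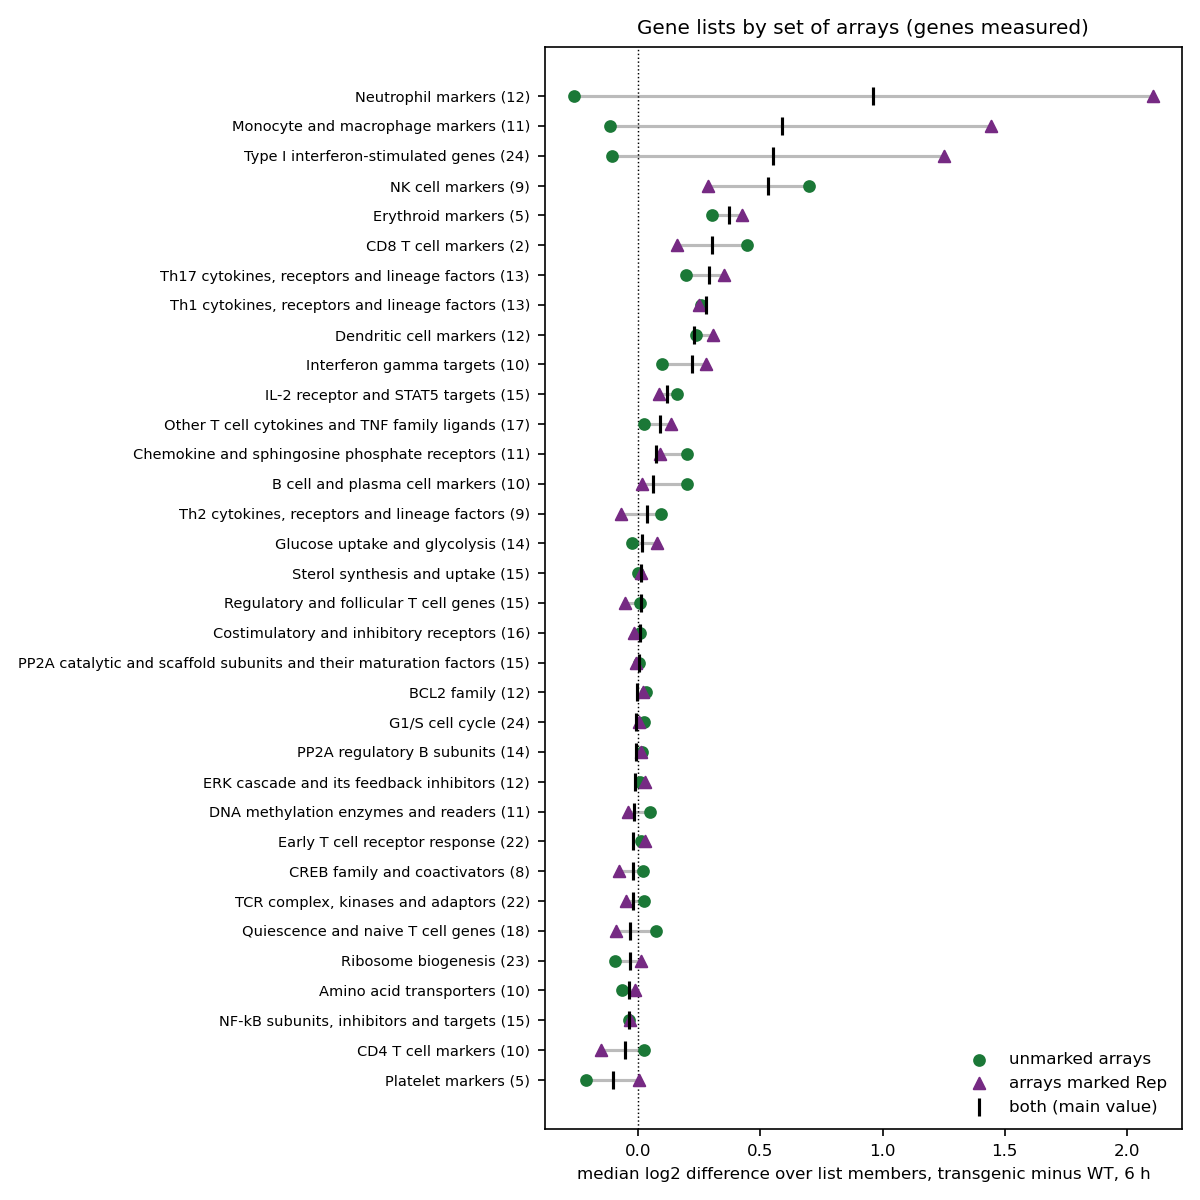
Median difference between transgenic and WT cells (log2) over the members of 34 gene lists, in the unmarked arrays (circles), the arrays marked Rep (triangles) and both together (bars), with the number of genes measured in brackets. Neutrophil, monocyte and macrophage, and interferon-stimulated lists span from below 0 to 2.11, 1.44 and 1.25, while Th17 (0.20 and 0.35) and Th1 (0.26 and 0.25) lists keep their sign.

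Growth and metabolism genes centred near 0. Ribosome biogenesis had a median of -0.04 over 23 genes, glucose uptake and glycolysis 0.01 over 14, sterol synthesis and uptake 0.01 over 15, G1/S cell cycle genes -0.01 over 24 and the BCL2 family -0.00 over 12, with 0 genes past the threshold in each. Amino acid transporters had a median of -0.04 over 10 genes. Within that list Slc7a6, a cationic amino acid exchanger gene, read 12.10 and 12.05 against 12.25 and 12.33 (-0.22 ± 0.08), and Slc7a11, the cystine transporter gene, was low on the WT array marked Rep, with 11.19 and 11.29 against 11.36 and 9.57. The glycolysis list was positive in 4 of 14 genes on the unmarked arrays and in 14 of 14 on the arrays marked Rep.

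DNA methylation enzymes and CREB family genes were examined because PP2A is known to act on both pathways in T cells. Dnmt1, the maintenance methyltransferase, differed by 0.04 ± 0.11. Tet1, an enzyme that oxidises methylated cytosine, read 7.42 and 7.46 in transgenic cells against 7.61 and 7.98 in WT cells (-0.35 ± 0.13, adjusted p = 1). It was the only member of 11 with separate groups, a share no higher than the 14% of all genes that were separate in that direction. Creb1 differed by -0.01 ± 0.11, and Crem, the gene of a CREB family repressor, read 9.88 and 10.42 against 9.84 and 10.27 (0.10 ± 0.27). Both lists had a median of -0.02.

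Apart from Nova1, Nnt and Wdfy1 had the largest moderated statistics in the higher direction among probe sets outside the lists with a single symbol. Nnt, the gene of the mitochondrial transhydrogenase, part of which is deleted in C57BL/6J mice, read 9.98 and 9.94 against 9.49 and 9.49. The labels give the strain as C57BL/6 for both genotypes and no substrain. Wdfy1, the gene of an endosomal adaptor, read 8.96 and 9.06 against 8.40 and 8.48. Both genes were picked among probe sets with separate groups and transgenic cells higher (11.1% of all probe sets), so their separation is no result. The differences of 0.48 ± 0.07 and 0.57 ± 0.09 did not pass (adjusted p = 0.26 and 0.52).

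Further genes with transgenic cells higher in both sets were Myl4, a myosin light chain gene (8.30 and 8.96 against 7.68 and 7.76, 0.91 ± 0.20), Lrrk1, a kinase gene (0.42 ± 0.09), and Tmem184a, a membrane protein gene (0.43 ± 0.09). With WT cells higher, the microRNA gene Mir15b read 7.03 and 6.82 against 7.50 and 7.72 (-0.68 ± 0.15). Map3k12, a kinase gene, differed by -0.48 ± 0.12, Tmem29 by -0.43 ± 0.11, Calcb, a calcitonin-related peptide gene, by -0.35 ± 0.07, and Chia1, a chitinase gene, by -0.35 ± 0.09. None of these passed (adjusted p = 1 for each). Als2cl, Cep126, Iho1 and Nap1l2 were also lower (-0.50, -0.36, -0.29 and -0.37), but all their readings, from 4.51 to 5.89, lay below the lower quartile of every array. All genes of this paragraph were picked among probe sets with separate groups, so their separation is no result. Of all probe sets, 11.1% were separate with transgenic cells higher and 14.1% with them lower.

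The difference at 6 h was set against those at 0 h and at 24 h with interaction terms. For 6 h against 0 h, 0 of 23410 probe sets passed (0%), and 420 had an unadjusted p under 0.05 (1.79%). For 6 h against 24 h, 0 passed (0%), and 488 had an unadjusted p under 0.05 (2.08%). Both shares of unadjusted p lie below the threshold of 0.05 itself, so neither shows a surplus of small p-values. The counts do not show that the differences were equal at the 3 times.

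Before stimulation neither Il17f nor Il17a read higher in transgenic cells as a group. Il17f read between 6.88 and 7.12 on the 4 unstimulated arrays, with both transgenic arrays between the WT arrays, and Il17a 6.57 and 6.62 against 6.74 and 6.91, with both transgenic arrays below both WT arrays (-0.23 ± 0.13, adjusted p = 1). At 6 h both genes read higher on both transgenic arrays than at 0 h, while Il17f in WT cells had gone from 6.88 and 7.12 to 7.16 and 7.54. The difference between genotypes was larger at 6 h than at 0 h by 1.63 ± 0.32 for Il17f and by 1.11 ± 0.18 for Il17a, neither of which passed (limma adjusted p = 1 for both). At 24 h the differences were 1.40 ± 0.22 and 0.85 ± 0.13, and those at 6 h exceeded them by 0.23 ± 0.32 and 0.03 ± 0.18. Il23r had another course, with a difference of 0.45 ± 0.16 at 0 h, 0.44 ± 0.16 at 6 h and 1.14 ± 0.16 at 24 h. The change from 6 h to 24 h in Il23r did not pass either (adjusted p = 1).

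Ppp2ca differed by 0.74 ± 0.08 at 0 h and 0.60 ± 0.08 at 24 h, so its smallest difference was at 6 h. WT cells read 13.15 and 13.15 at 0 h and 13.42 and 13.30 at 6 h, while transgenic cells read 13.90 and 13.88 and then 13.80 and 13.69. The change in the difference from 0 h to 6 h was -0.35 ± 0.11 (adjusted p = 1). Mid1 read higher at 6 h than at 0 h in both genotypes, from 9.68 and 9.94 to 10.22 and 10.30 in transgenic and from 10.22 and 10.47 to 11.16 and 11.26 in WT cells. Its difference was -0.54 ± 0.11 at 0 h and -0.74 ± 0.11 at 24 h. Nova1 10400155 read 11.32 and 11.24 in transgenic cells at 0 h, 9.31 and 9.51 at 6 h and 9.80 and 9.72 at 24 h, while WT readings stayed between 5.25 and 5.68. Its difference at 6 h was smaller than at 0 h by 1.87 ± 0.24, which did not pass (adjusted p = 0.58).

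**Figure D4:**
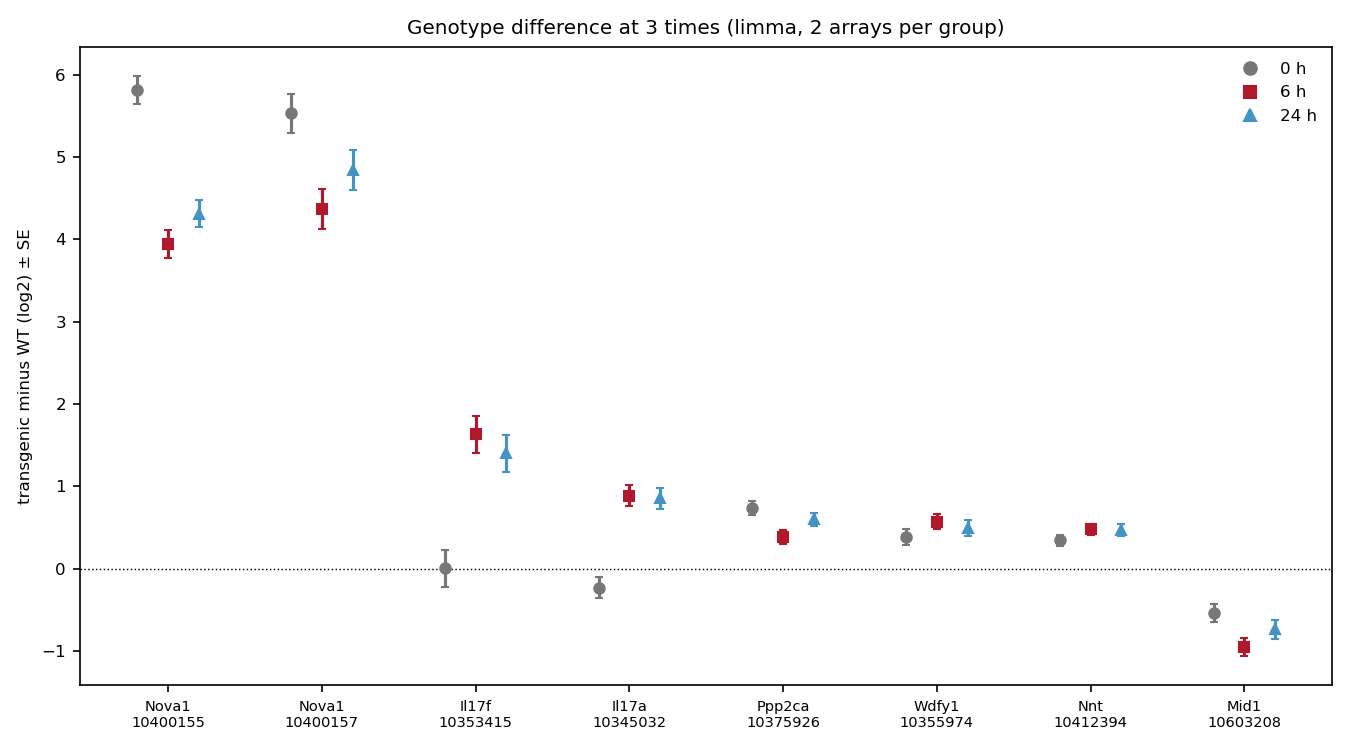
Difference between transgenic and WT cells (log2, with bars of 1 SE from limma, 2 arrays per group) at 0 h, 6 h and 24 h for 8 probe sets. Il17f (0.01, 1.63 and 1.40) and Il17a (-0.23, 0.89 and 0.85) lie near or below 0 before stimulation, while Nova1, Ppp2ca, Wdfy1 and Nnt are above 0 and Mid1 is below 0 at all 3 times.

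As a list, Th17 genes had a mean level of 8.98 and 9.08 in transgenic and 8.94 and 8.97 in WT cells at 0 h, and of 9.66 and 9.60 against 9.31 and 9.20 at 6 h. The list medians of the difference were 0.07 at 0 h, 0.29 at 6 h and 0.39 at 24 h. For Th1 genes the medians at these times were 0.23, 0.28 and 0.27. Those of NK cell markers were 0.42, 0.53 and 0.38, and those of dendritic cell markers 0.34, 0.23 and 0.25. These lists thus had positive medians before stimulation too. Early TCR response genes had a median of 0.26 at 0 h and -0.02 at 6 h. Interferon-stimulated genes had mean levels of 9.73 and 9.48 in WT cells at 0 h and 11.37 and 9.85 at 6 h, so the unmarked WT array was high at 6 h and the WT array marked Rep stayed near its value at 0 h. Transgenic cells read 10.34 and 9.76 at 0 h, above both WT arrays. At 24 h they read 10.49 and 10.47 against 9.73 and 9.49 in WT cells. The list's median difference was 0.40 at 0 h, 0.55 at 6 h and 0.91 at 24 h. Neutrophil markers on WT arrays marked Rep were low at all 3 times (9.07, 8.74 and 7.95). On the unmarked WT arrays neutrophil markers read 12.48 at 0 h and 11.47 at 24 h. These levels lay above the transgenic ones (12.31 and 11.50 at 0 h, 10.73 and 10.27 at 24 h). Interferon-stimulated genes on the same unmarked WT arrays lay below both transgenic arrays at 0 h and 24 h.

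**Figure D5:**
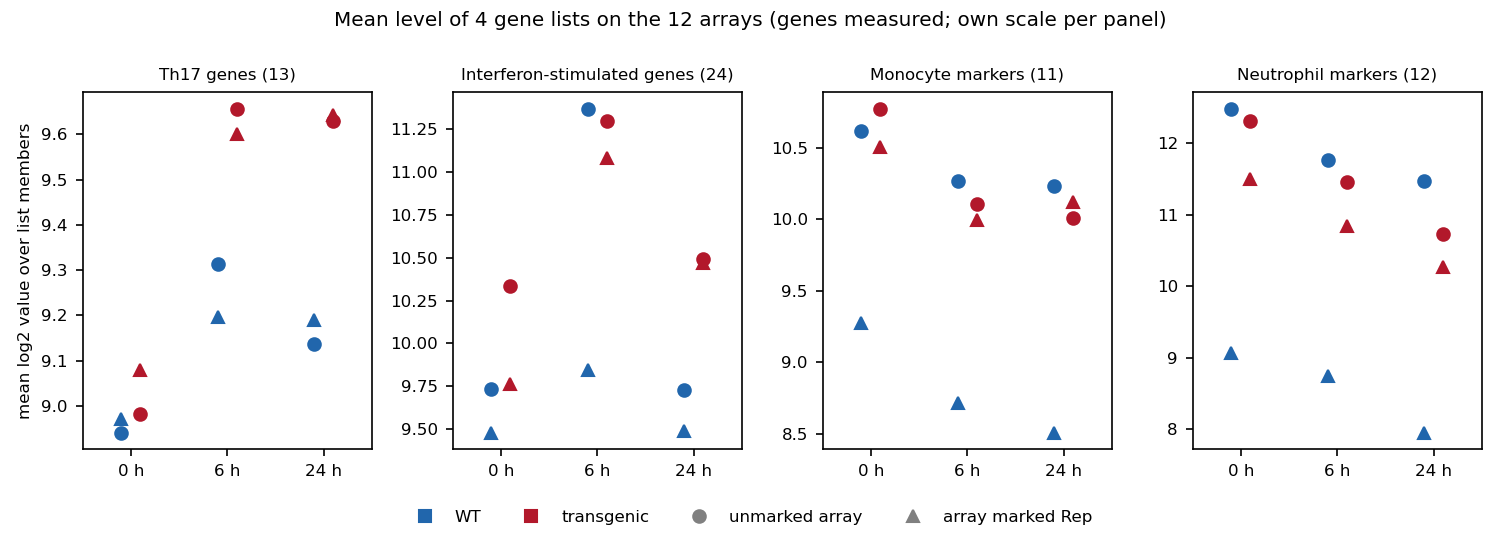
Mean log2 level of 4 gene lists on the 12 arrays at 0 h, 6 h and 24 h, for WT (blue) and transgenic (red) cells, with circles for unmarked arrays and triangles for arrays marked Rep; each panel has its own scale. Th17 genes are higher on both transgenic arrays at 6 h (9.66 and 9.60 against 9.31 and 9.20), and the WT array marked Rep stands low at 6 h in the interferon, monocyte and neutrophil panels (9.85, 8.71 and 8.74).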

How the data were processed

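Total RNA of 12 samples was measured on one-colour arrays, and 4 of them enter the comparison. The deposited values are on a log2 scale, 3.49 to 15.38, for 28853 probe sets on every array. The summary and normalisation by which the authors made these log2 values are not stated. Array medians ran from 7.39 to 7.50, and the values were quantile normalised between arrays. Symbols came from the platform annotation, updated by Entrez number through RefSeq (129 not updated): 21789 probe sets had 1 symbol, 1621 several and 5443 none, and the 23410 with a symbol were tested. The number of arrays limits the precision.

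limma 3.58.1 in R 4.3.3 fitted 1 mean for each of 6 groups over 12 arrays (6 residual and 3.05 prior degrees of freedom). Benjamini-Hochberg adjustment was over 23410 probe sets, with a threshold of 0.05. The fit was tested on simulated data with known differences and independent noise on each array. That simulation held no pairing by the mark and no array standing apart, so it does not cover these features of the data. Gene lists (34, with 500 entries, 455 of them measured) were summarised by counts and medians over 1 probe set per gene, the one with the highest mean; some listed genes were not analysed here. Tables used pandas 2.3.3 and numpy 2.4.6 under Python 3.11.15, and plots matplotlib 3.10.9.

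Genes named were Nova1, Ppp2ca and a set of PP2A, cytokine and activation genes, the 10 largest moderated statistics in each direction without overlap, the leading members of each list by p, and the leading genes of the interaction terms. Other list members and Il1a were named after their values were seen. The comparison, its members and the lists were chosen with earlier results of these data known.

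The deviations of arrays with the same mark from their group means correlated in all 15 pairs of groups (0.14 to 0.59, and 0.50 between transgenic and WT cells at 6 h), so the mark pairs the arrays in these data, and the replicate block (the mark as a term) was an alternative. The others were median centring, the deposited values unchanged, a filter on the 40% of lowest mean, trended and robust moderation, array weights, the groups compared only, all rows of the table, and each array left out in turn. A fit without the 3 WT arrays marked Rep was chosen after seeing the data.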

Additional observations from a re-analysis of the deposited data

Results flagged for a closer look

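Some genes had a difference between genotypes at 6 h whose sign was opposite at another time. In these, both arrays of one genotype lay above both of the other at each of these times. The genes were picked by this rule, and the share of all probe sets that meet it is not given here. At 6 h alone, 11.1% of probe sets had separate groups with transgenic cells higher and 14.1% with them lower. For Socs1 the nearest arrays at 0 h read 9.592 (transgenic) and 9.595 (WT). Among genes of the Th17 lineage and of cytokine feedback, the difference at 6 h exceeded that at 0 h by 1.11 for Il17a (-0.23 at 0 h), 0.50 for Ccl20 (-0.12 at 0 h) and 0.56 for Socs1 (-0.23 at 0 h). Crisp2, a gene of sperm proteins, had 0.54 for the same comparison. Neto1, a neuronal receptor accessory gene, had -0.28 against 0 h and -0.57 against 24 h. Against 24 h, the difference at 6 h was higher by 0.54 for Tmem184a, and the values were -0.85 for Mir15b, -0.49 for Chia1, -0.57 for Tmem29 and -0.59 for Mir224, a microRNA gene. The limma interaction term was computed for each and passed for none (adjusted p = 1 for every gene named here). All readings of Crisp2, Neto1 and Mir224 lay below the lower quartile of the arrays, where such readings are near the low end of the measured range. Groups of 2 arrays allow no test for single arrays that stand apart.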

How the results depend on the processing

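The count of 2 probe sets at 6 h, both of Nova1, was 4 with the mark as a replicate block (Il17f, Mid1 and both Nova1 probe sets) and 1 with the groups compared only (Nova1 10400155; 10400157 had an adjusted p of 0.056). Leaving out 1 array at a time gave 2 to 3, where the third was Il1a, the gene of interleukin 1 alpha, without the unmarked WT array; Il1a read 9.13 and 9.42 in transgenic and 9.08 and 6.57 in WT cells (1.45 ± 0.61, adjusted p = 1). The other alternatives gave 2. The interaction of 6 h with 0 h gave 0 to 1 without 1 array, Il1a again without the unmarked WT array, and 0 otherwise; that of 6 h with 24 h gave 0 throughout. The block changed no other call. Of 153 named probe sets, 92 kept their sign under all alternatives and 61 did not, and 11 of 34 list medians kept theirs, among them Th17 (0.14 to 0.31), Th1 (0.19 to 0.36), dendritic cell (0.15 to 0.37) and NK cell markers (0.10 to 0.80). Interferon-stimulated genes (-0.22 to 1.25), neutrophil (-0.60 to 2.44) and monocyte and macrophage markers (-0.20 to 1.67) changed sign without the WT array marked Rep. With 2 arrays per group, small differences in genes of wide spread cannot be detected.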
